A study of Rattus norvegicus with 47 samples.

Results

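The mRNA of 10 B cell surface receptors was followed in the blood of rats over the first day after middle cerebral artery occlusion (MCAo). The genes Ms4a1, Cd22, Cd37, Cd72, Cr2, Fcer2, Fcmr, Fcrla, Cxcr5 and Tnfrsf13c were chosen by their symbol, as receptors known from B cells, and all 10 were found among the 27596 probe sets of the array table, each with 1 probe set. The animals were 8 male spontaneously hypertensive rats (SHR) of 16 weeks, a single inbred strain with raised blood pressure, and every rat underwent the occlusion by a thread, which was withdrawn under renewed anesthesia between the 1 h and the 2 h sample. Blood was taken before anesthesia (0 h) and at 1, 2, 3, 6 and 24 h, giving 8 arrays per time point, or 7 at 6 h. There was no sham-operated group, so occlusion, surgery and anesthesia cannot be told apart, and the 24 h sample came from the heart after an anesthetic overdose while all earlier ones came from the tail vein.

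The values are the authors' means of the RMA signal on the log2 scale at each time point, where a difference of 1 is a doubling, and the SDs are those the authors deposited. RMA is a summary of the probes of a gene that corrects background and brings all arrays to 1 common distribution. Differences between time points were tested with limma from these means, SDs and array numbers, and each p-value was adjusted over all probe sets by the Benjamini-Hochberg method. A change was called at an adjusted p under 0.05. The same rats were sampled at all time points, but the array columns name neither rat nor time, so the model took arrays as independent and its p-values leave out the pairing. Over all probe sets the authors' means at 0 h ranged from 2.30 to 13.6, and the median change from 0 h lay between 0.04 and 0.07 at every later time point. The tissue label was checked on blood cell markers: at 0 h the 5 red cell markers had means from 11.3 to 13.4 and the 5 general leukocyte markers from 10.5 to 12.7.

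B cells recognize antigen through a surface immunoglobulin bound to the signalling chains Cd79a and Cd79b, and the receptors described here surround that complex. Some strengthen its signal, some dampen it through inhibitory motifs in their tails that recruit phosphatases, some bind antibody, and others direct the cell to follicles or keep it alive. In blood, most of these mRNAs mark resting B cells that recirculate between blood and lymphoid organs. Fcrla is an exception in place, since its protein is known as an intracellular relative of the Fc receptors and not as a receptor on the cell surface.

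Most of these mRNAs were lower than at 0 h throughout the first 6 h and part of the way back at 24 h. Against 0 h, 9 of the 10 genes were lower at 1 h (as were 15.4% of all probe sets) and 9 at 2 h (18.6%). All 10 were lower at 3 h (19.2%), whereas 9 were at 6 h (19.3%) and 7 at 24 h (13.9%). None of the 10 was called higher than at 0 h, a call made for 21.7%, 21.7%, 27.3%, 22.5% and 17.4% of all probe sets over the later time points, in order. Their median change over 1, 2, 3, 6 and 24 h was -0.997, -1.27, -1.38, -1.23 and -0.42. All 10 varied over the 6 time points by the limma F-test, as did 55.5% of all probe sets, and their ranks by that test ran from 3 for Fcmr to 9622 for Cd37. In whole blood, fewer B cells and less mRNA per B cell cannot be told apart.

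**Figure D1:**
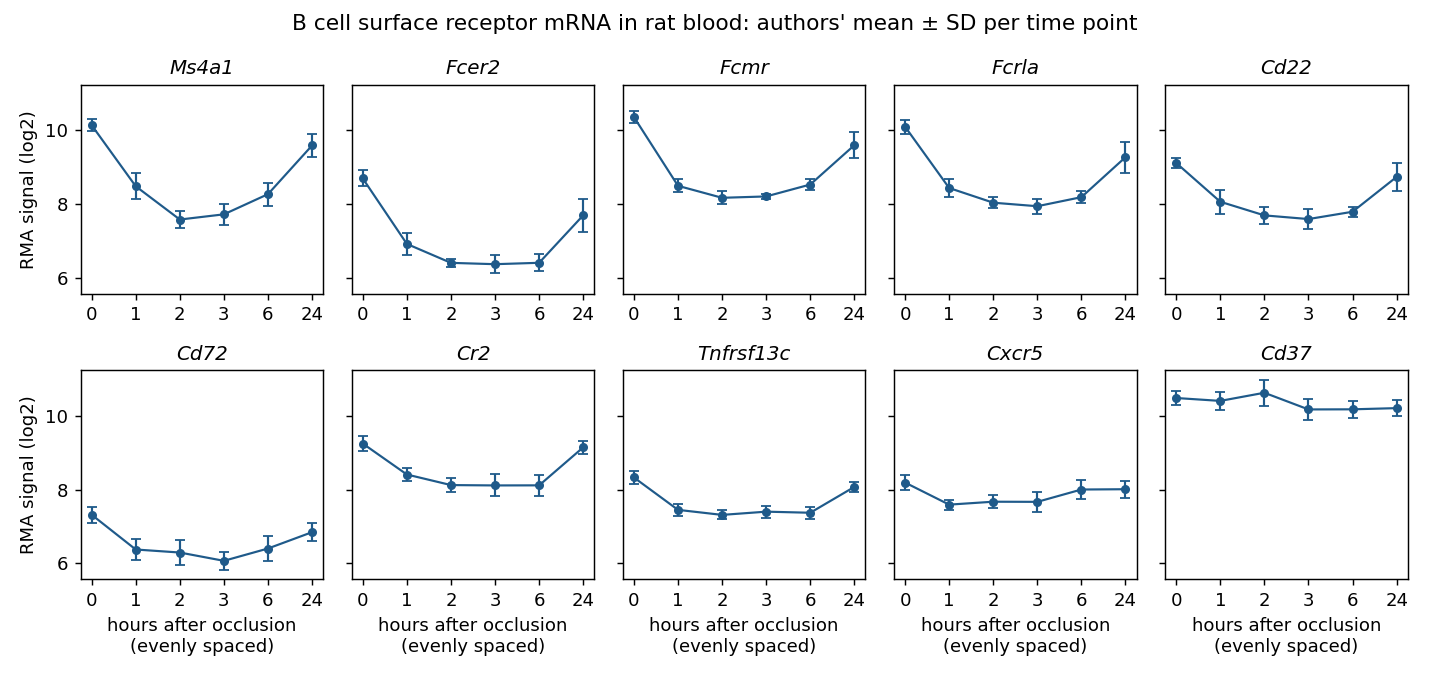
Authors' mean RMA signal (log2, vertical axis) of each receptor at 0, 1, 2, 3, 6 and 24 h after occlusion (horizontal axis, evenly spaced), with the authors' SD as error bars. Ms4a1, Fcer2, Fcmr and Fcrla had the deepest troughs, with lowest means of 7.58, 6.37, 8.17 and 7.94, and Cd37 stayed between 10.17 and 10.63.

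Ms4a1, which encodes CD20, a membrane-spanning protein of mature B cells, lies at 234494122 to 234506270 of chromosome 1 (rn5, minus strand). Over 0, 1, 2, 3, 6 and 24 h its authors' means were 10.14, 8.48, 7.58, 7.72, 8.27 and 9.59, with SDs from 0.16 to 0.35. The mean was highest before occlusion and lowest at 2 h, and the SDs at 0 h and at 1 to 6 h did not reach each other. The change at 2 h, -2.56 ± 0.13 (SE), corresponded to a signal 5.89-fold lower (adjusted p = 1.36e-20). It came in successive steps, with -1.66 in the first hour and a further -0.90 from 1 to 2 h (adjusted p = 5.08e-06). The mean rose again by 0.55 from 3 to 6 h (adjusted p = 0.0118) and by 1.32 from 6 to 24 h (adjusted p = 1.74e-10). At 24 h it was still 0.55 below the 0 h mean (adjusted p = 0.0015), which is 21.5% of the change at 2 h.

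Fcmr, Fcer2 and Fcrla belong to the receptors for the constant part of antibodies and their relatives. Fcmr encodes the receptor for IgM and lies at 52691434 to 52705667 of chromosome 13 (rn5, plus strand). At the successive time points from 0 to 24 h the authors' means were 10.36, 8.50, 8.17, 8.21, 8.53 and 9.60. The SDs were at most 0.18 up to 6 h and 0.35 at 24 h, so the fall in the first hour was far larger than the spread of the arrays. That first step was -1.86 ± 0.10 (SE; adjusted p = 1.21e-19), which is 85.2% of the largest change, and the change at 24 h was -0.76 ± 0.10 (SE; adjusted p = 5.73e-08).

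Fcer2 encodes CD23, the low-affinity receptor for IgE, and its probe set carries no chromosome position in the rn5 annotation. From 0 h through 24 h, in order, its authors' means were 8.70, 6.92, 6.41, 6.37, 6.41 and 7.70. The 2, 3 and 6 h means lay within 0.04 of each other, with adjusted p-values of 0.939 for the step from 2 to 3 h and 0.923 for that from 3 to 6 h. They also lay below the medians of all probe sets at these hours, 6.64, 6.65 and 6.64. Whether a low signal limited how far they could fall was not tested. The change of -2.29 ± 0.13 (SE) at 2 h was a 4.88-fold lower signal (adjusted p = 3.8e-19). Of the 10 genes it was the furthest below its 0 h mean at 24 h, -0.999 ± 0.13 (SE; adjusted p = 1.44e-07), and its SD was also the highest there, at 0.44.

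Fcrla lies at 93909547 to 93918618 of chromosome 13 (rn5, minus strand). The authors' means over 0, 1, 2, 3, 6 and 24 h were 10.10, 8.44, 8.04, 7.94, 8.19 and 9.27, with SDs from 0.15 to 0.42. The lowest mean was at 3 h, -2.16 ± 0.12 (SE) from 0 h (adjusted p = 4.64e-20), and did not differ beyond the spread from that at 2 h (adjusted p = 0.766). At 24 h the change was -0.83 ± 0.12 (SE; adjusted p = 5.97e-07). Ms4a1, Fcmr, Fcer2 and Fcrla were also the only members called lower at 2 h than at 1 h, a step called lower for 4.11% and higher for 4.66% of all probe sets.

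Cr2, Cd22 and Cd72 act next to the antigen receptor. Cr2 encodes CD21, which binds fragments of complement C3 on antigen and forms with Cd81 part of a complex that strengthens the signal. It lies at 118582827 to 118617951 of chromosome 13 (rn5, minus strand). Over 0, 1, 2, 3, 6 and 24 h its authors' means were 9.25, 8.41, 8.12, 8.11, 8.12 and 9.15, with SDs from 0.17 to 0.30. The means formed a flat trough from 2 to 6 h, in which neither step passed the test (adjusted p = 0.983 and 0.994). The change at 2 h was -1.13 ± 0.11 (SE; adjusted p = 5.16e-12), and the 24 h mean was not called different from 0 h, with a difference of -0.10 and a 95% interval from -0.32 to 0.12 (adjusted p = 0.492).

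Cd22, a sialic acid-binding lectin whose tail recruits the phosphatase Ptpn6 and dampens the antigen receptor, lies at 90470655 to 90482106 of chromosome 1 (rn5, minus strand). At the successive time points from 0 to 24 h the authors' means were 9.12, 8.06, 7.69, 7.60, 7.79 and 8.74, with SDs from 0.13 to 0.38. The first hour held most of the fall, and the steps from 1 to 2 h (adjusted p = 0.0561), from 2 to 3 h (0.774) and from 3 to 6 h (0.465) did not pass the test. The largest change was -1.52 ± 0.13 (SE) at 3 h (adjusted p = 5.38e-14). At 24 h it was -0.38 ± 0.13 (SE; adjusted p = 0.0195), a call lost when the means were quantile normalized (adjusted p = 0.0625).

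Cd72 encodes a further inhibitory lectin, which binds semaphorin 4D, and lies at 63468967 to 63476319 of chromosome 5 (rn5, minus strand). From 0 h through 24 h, in order, its authors' means were 7.32, 6.38, 6.29, 6.07, 6.40 and 6.85, with SDs from 0.21 to 0.35. The means from 1 to 6 h lay below the median of all probe sets, which was 6.64 at 2 h. Whether a low signal limited the fall was not tested. The change at 3 h was the largest, -1.25 ± 0.13 (SE, adjusted p = 1.06e-10). At 24 h the change was -0.47 ± 0.13 (SE; adjusted p = 0.006), which is 46.1% of the change at 2 h and 37.8% of that at 3 h.

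Tnfrsf13c encodes the receptor for BAFF, a survival factor of mature B cells, and lies at 123438518 to 123439920 of chromosome 7 (rn5, minus strand). The authors' means over 0, 1, 2, 3, 6 and 24 h were 8.33, 7.45, 7.31, 7.40, 7.37 and 8.07, and none of its SDs exceeded 0.17. The fall was a single drop in the first hour, -0.88 ± 0.08 (SE; adjusted p = 8.37e-13), after which no step passed the test until that from 6 to 24 h (adjusted p = 9.77e-10). The change at 24 h was -0.26 ± 0.08 (SE; adjusted p = 0.0085), and it was not called on quantile normalized means (adjusted p = 0.122).

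Cxcr5, the receptor for the follicular chemokine Cxcl13, is known from B cells and from follicular helper T cells, and lies at 47455500 to 47468884 of chromosome 8 (rn5, minus strand). Over 0, 1, 2, 3, 6 and 24 h its authors' means were 8.19, 7.59, 7.67, 7.67, 8.00 and 8.01, with SDs from 0.13 to 0.27. It was lowest at 1 h, with a change of -0.60 ± 0.10 (SE; adjusted p = 1.41e-05), and at 6 h its change of -0.19 no longer passed the test (adjusted p = 0.156). It was the only member of the 10 that was not called lower at 6 h. The rise from 3 to 6 h, 0.33 ± 0.11 (SE), did not itself pass the test (adjusted p = 0.06). Of the follicular helper T cell markers, 4 were measured: at 2 h Sh2d1a, an adaptor of SLAM receptors, changed by -0.99 (adjusted p = 3.87e-06) and Bcl6, a transcription repressor, by 0.52 (adjusted p = 9.49e-07), while Il21 differed by 0.13 (adjusted p = 0.0963). The mean of Il21 at 0 h was 5.01, below the median of 6.61 over all probe sets. What part T cells had in the Cxcr5 signal was not tested.

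Cd37, a tetraspanin found on B cells but also on other leukocytes, did not share this course. It lies at 102295444 to 102301104 of chromosome 1 (rn5, minus strand). At the successive time points from 0 to 24 h the authors' means were 10.48, 10.41, 10.63, 10.17, 10.18 and 10.21, with SDs from 0.18 to 0.35. The mean was highest at 2 h, where 9 other members were below their 0 h mean, but the difference of 0.14 from 0 h did not pass the test (95% interval -0.10 to 0.39, adjusted p = 0.361). It fell by 0.45 from 2 to 3 h (adjusted p = 0.0242), the only member called in that step, which was called lower in 1.62% and higher in 1.9% of all probe sets. The changes from 0 h were -0.31 at 3 h (adjusted p = 0.0341) and -0.31 at 6 h (adjusted p = 0.0466), both within 1.24-fold. Neither call was kept on quantile normalized means (adjusted p = 0.101 at 3 h and 0.097 at 6 h). At 24 h its change of -0.27 was not called (adjusted p = 0.0803).

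**Figure D2:**
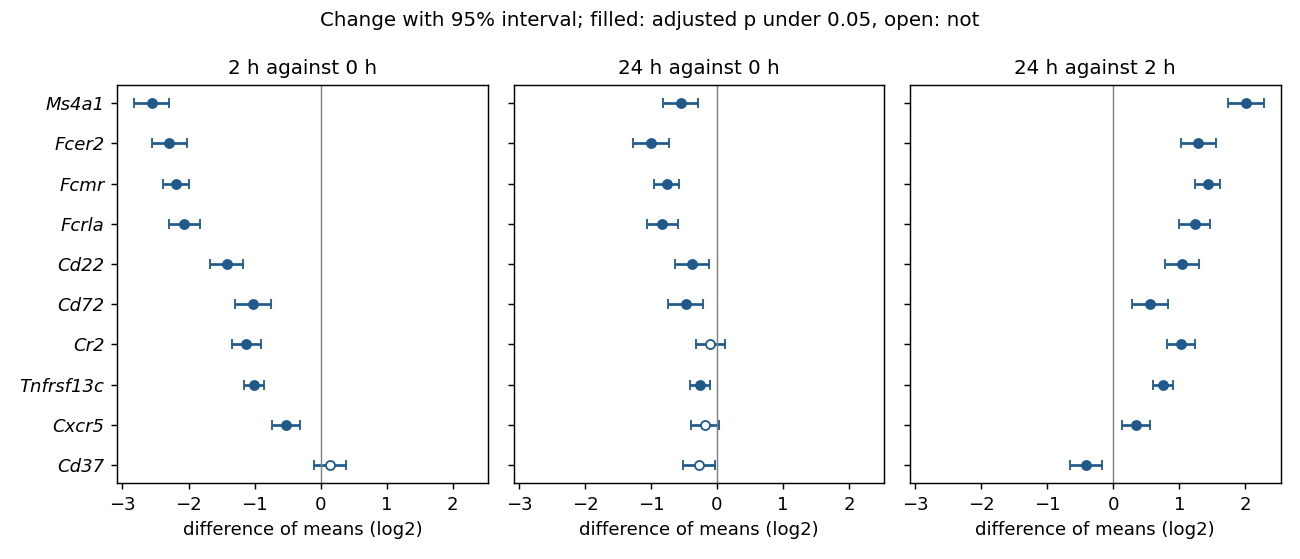
Differences of the authors' means (log2, horizontal axis) of each receptor at 2 h against 0 h, 24 h against 0 h and 24 h against 2 h, with 95% intervals from the limma fit. Filled points had an adjusted p under 0.05. At 2 h the estimates ran from -2.56 for Ms4a1 to 0.14 for Cd37, and at 24 h from -0.999 for Fcer2 to -0.10 for Cr2.

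The return towards the 0 h level was compared directly between 24 h and 2 h. In this comparison 9 of the 10 genes were higher at 24 h, a call made for 8.7% of all probe sets, and Cd37 was lower (7.52%). The rise was 4.02-fold for Ms4a1, 2.69-fold for Fcmr, 2.44-fold for Fcer2 and 2.35-fold for Fcrla. Among the 9 genes, the part of the 2 h change still present at 24 h ranged from 9.07% for Cr2 to 46.1% for Cd72, with a median of 34.7%. The rise was also followed from 3 to 6 h and from 6 to 24 h. From 3 to 6 h Ms4a1 and Fcmr were called higher (2.34% of all probe sets), and from 6 to 24 h 8 members were (10.2% of all probe sets). Cxcr5 and Cd37 were not called in the step from 6 to 24 h, at 0.01 and 0.03. The median change of the 10 genes was 0.22 from 3 to 6 h and 0.99 from 6 to 24 h. These intervals differ in length, and no sample lies between 6 and 24 h. When the return began or was fastest was therefore not resolved. The step from 6 to 24 h is also the step from tail vein to heart and to an anesthetic overdose, so time, site of collection and overdose cannot be told apart in any comparison with 24 h.

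Partners and ligands of these receptors, together with close relatives of Tnfrsf13c and their ligand Tnfsf13, were taken as a list of 16 genes. At 2 h, 7 of them were lower (as were 18.6% of all probe sets), 3 were higher (21.7%) and 6 did not pass the test. Their median change was -0.12. The signalling chains Cd79b and Cd79a of the antigen receptor changed by -2.37 and -1.98, the probe set of Cd79a also naming Cd79al. Cd81, the tetraspanin of the Cr2 complex, which is found on many cell types, changed by -0.62 (adjusted p = 4.22e-10). St6gal1, the enzyme that makes the sialic acid linkage bound by Cd22, changed by -0.95 (adjusted p = 2.78e-11), and Traf3, the adaptor bound by the BAFF receptor, by -0.70 (adjusted p = 2.96e-10). The 3 genes that rose at 2 h were C3, the complement protein whose fragments bind Cr2 (1.25), Sema4d, the ligand of Cd72 (0.77), and Ptpn6, the phosphatase recruited by Cd22 and Cd72 (0.17).

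Of the remaining partners, Tnfsf13, or APRIL, which binds Tnfrsf13b and Tnfrsf17 and none of the 10 receptors, changed by -0.44 at 2 h (adjusted p = 0.00233) and Inpp5d, an inositol phosphatase, by -0.26 (adjusted p = 0.000283), while the kinase Lyn differed by 0.09 (adjusted p = 0.247). Tnfsf13b, which encodes BAFF, differed by -0.14 at 2 h (95% interval -0.30 to 0.01, adjusted p = 0.122), and Cxcl13 by 0.10 (adjusted p = 0.275). Their means at 0 h were 6.54 and 4.94, below the median of 6.61 over all probe sets. Adam10, the protease that sheds CD23, differed by 0.05 (adjusted p = 0.548). The other receptors of the BAFF family, Tnfrsf13b and Tnfrsf17, differed by -0.09 and -0.07 at 2 h (adjusted p = 0.221 and 0.573), beside the -1.01 of Tnfrsf13c. The means of Tnfrsf13b and Tnfrsf17 at 0 h were 7.02 and 6.18, beside 8.33 for Tnfrsf13c and a median of 6.61 over all probe sets. Whether signals this low could show a fall like that of Tnfrsf13c was not tested. Neutrophils and monocytes also transcribe several genes of this list, and what part those cells had in the rises was not tested. At 24 h, 7 of the 16 genes were lower than at 0 h (13.9% of all probe sets) and 0 were higher (17.4%). In limma 0 of the 16 were higher at an unadjusted p under 0.05.

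**Figure D3:**
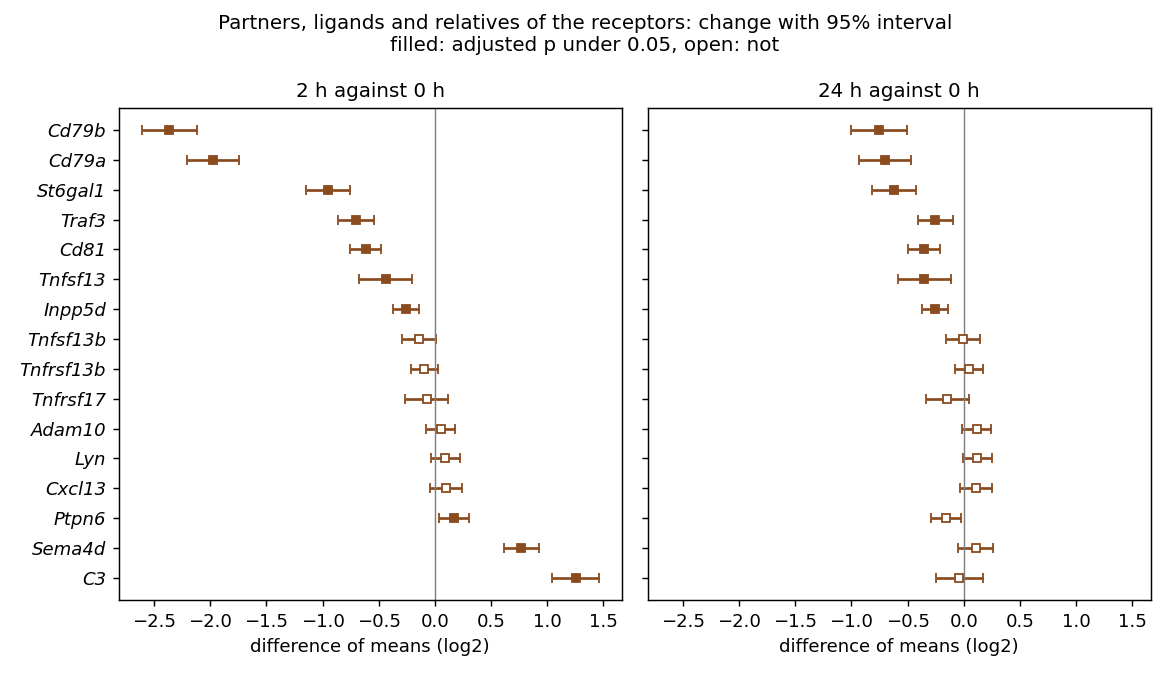
Differences of the authors' means (log2, horizontal axis) of 16 partners, ligands and relatives of the receptors at 2 h and at 24 h against 0 h, with 95% intervals from the limma fit and filled squares for an adjusted p under 0.05. At 2 h Cd79b and Cd79a lie lowest, at -2.37 and -1.98, and C3 lies highest at 1.25.

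Of 14 other proteins known from the B cell surface, 13 were measured. At 2 h 9 were lower (18.6% of all probe sets), 1 was higher (21.7%) and 3 did not pass the test, with a median of -0.55. Tnfrsf13b was counted both here and in the partner list. The largest changes were those of Btla, an inhibitory receptor (-2.05 ± 0.13 SE), Cd180, a relative of the Toll-like receptors (-2.01 ± 0.15 SE), and Cd24, a lipid-anchored glycoprotein (-1.23 ± 0.13 SE). Cd40, the receptor for T cell help, differed by -0.11 (adjusted p = 0.291).

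The levels of cell type markers moved in the same samples. All 11 B cell markers, among them Cd79a and Cd79b of the partner list, were lower at 2 h, from -2.49 for the transcription factor Ebf1 to -0.18, with Bank1 at -2.04 and a median of -1.17. Bank1 had 6 probe sets and Ebf1 had 2, and the values are those of 1 probe set each. Another probe set of Bank1 changed by -1.30 at 2 h. By the estimates alone, Ms4a1 changed by more than all 11 markers at 2 h, and Fcer2, Fcmr and Fcrla by more than all but 2 of them, while Cxcr5 and Cd37 lay above 9 and 11 of them. Ms4a1, at -2.56 ± 0.13 (SE), was close to Ebf1, at -2.49 ± 0.13 (SE). Differences between genes were not tested. At 24 h the markers had a median of -0.37 and 9 of 11 were called lower. All 13 T cell markers were lower at 2, 3, 6 and 24 h, with medians of -0.91, -1.02, -1.14 and -0.70. Of the 8 NK cell markers 5 and 7 were lower at 2 and 24 h, with medians of -0.47 and -0.70. The T cell adaptor Trat1, the T cell receptor chain Cd3d and the costimulatory receptor Cd28 changed by -1.10, -1.09 and -1.08 at 2 h. In the NK cell list the receptors Klrk1 and Klrd1 changed by -0.87 and -0.69 and perforin (Prf1) by -0.65, while the receptor Ncr1, named after its value was seen, was the 1 marker called higher, at 0.22 (adjusted p = 0.0446). Between 2 and 24 h, 9 of 11 B cell markers, 2 of 13 T cell markers and 0 of 8 NK cell markers were called higher, beside 9 of the 10 receptors. The share over all probe sets was 8.7%. Between 6 and 24 h the counts were 10 of 11, 10 of 13 and 1 of 8, beside 8 of the 10 receptors and 10.2% of all probe sets. No NK cell marker was higher at 24 h than at 2 h at an unadjusted limma p under 0.05. The difference between these lists was not tested.

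Neutrophil markers went the other way, with 7 of 8 higher at 2 h, a median of 1.40 and the largest rises in Fpr1, a receptor for bacterial peptides (2.80), the protease Mmp9 (2.75) and the chemokine receptor Cxcr2 (1.51). Plasma cell markers had a median of 0.00 at 2 h, with Jchain, the joining chain of secreted antibody, at -0.67, Xbp1, a factor of the secretory programme, at 0.63 and Mzb1 at -0.18, and Tnfrsf17 was in this list as well as among the partners. The 5 general leukocyte markers had a median of 0.04 and the 5 red cell markers of 0.03, and none of these was called lower at 2 h. Of the leukocyte list Laptm5 was higher by 0.24, while Ptprc and Coro1a, at -0.12 and -0.07, did not pass the test (adjusted p = 0.0543 and 0.375). The red cell genes Slc4a1, Epb42 and Ahsp differed by 0.17, 0.16 and 0.03 (adjusted p = 0.139, 0.188 and 0.852). Monocyte markers split, with 3 of 8 lower, 3 higher and a median of -0.12, the largest changes being those of Cd14 (1.38), Cx3cr1 (-1.08) and Fcgr1a (0.86). Of 6 platelet markers 2 were higher, Treml1 by 0.29 and Gp1bb, whose probe set also names Sept5, by 0.21, while Itga2b differed by 0.28 (adjusted p = 0.0984). What part a shift in the makeup of the blood had in the values of the receptors was not tested.

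**Figure D4:**
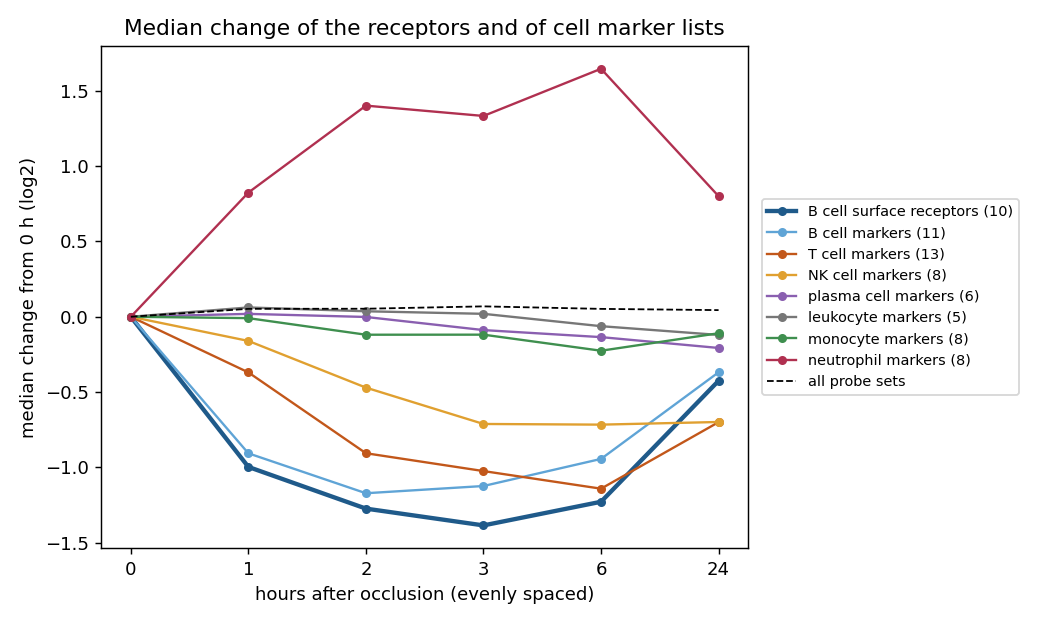
Median change from 0 h (log2, vertical axis) of the 10 receptors and of 7 cell marker lists at each time point (horizontal axis, hours, evenly spaced), with the number of genes in each list in brackets and the median of all probe sets as a dashed line. The receptors and the B cell markers stood at -1.23 and -0.94 at 6 h and at -0.42 and -0.37 at 24 h, while neutrophil markers rose to 1.65 at 6 h.

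Genes with the most similar course were sought among the 21396 other probe sets with a symbol, by the root mean square difference from the mean profile of the 10 receptors over the 6 time points, each profile taken relative to its own mean. The nearest were Cd200 (0.06), a second probe set of Bank1 (0.06), Kynu (0.07), Bmi1 (0.07) and Zbtb10 (0.08), all on the log2 scale. Their changes at 2 h were -1.31, -1.30, -1.61, -1.36 and -1.38, beside -1.41 for the mean profile. Cd200 encodes a surface glycoprotein of B cells and other cells, Bank1 an adaptor of B cell signalling, Kynu an enzyme of tryptophan breakdown, and Bmi1 a Polycomb protein. The members themselves lay between 0.06 and 0.54 from their mean profile.

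Promoter sequences, the 250 bases before the RefSeq start of a gene on GRCr8, were at hand for Cd22, Cd37, Cr2, Fcmr, Fcrla and Tnfrsf13c, 6 of the 10 members. They were searched on both strands for letters bound by factors known from B cells: the octamer ATTTGCAT, the PU.1 site GAGGAAGT, the E-box CAGGTG, the consensus palindrome of EBF and the consensus kappaB site, and also for TATAAA. Of all 33469 promoters, 1.56% held the octamer, 0.738% the EBF site, 2.04% the PU.1 site, 15.9% the E-box, 0.0956% the kappaB site and 12.9% TATAAA. The E-box letters were found in Cr2, Fcrla and Tnfrsf13c and the PU.1 letters in Cd37, with 1 match each and no overlap, and the other letters in none of the 6. The 3 promoters with an E-box and that of Cd37, the member with the divergent course, are shown 5′ to 3′ on the strand of the gene, with the match in capitals (in Cr2 and Cd37 it reads on the opposite strand). They are Cr2 at chr13:109244507-109244756, Fcrla at chr13:85702827-85703076, Tnfrsf13c at chr7:115618648-115618897 and Cd37 at chr1:104860785-104861034, all on the minus strand of GRCr8.
Cr2: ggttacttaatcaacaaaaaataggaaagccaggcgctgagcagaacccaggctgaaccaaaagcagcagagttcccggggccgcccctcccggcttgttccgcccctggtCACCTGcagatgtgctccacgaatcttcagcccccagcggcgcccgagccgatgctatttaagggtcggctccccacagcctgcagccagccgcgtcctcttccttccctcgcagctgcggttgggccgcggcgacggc
Fcrla: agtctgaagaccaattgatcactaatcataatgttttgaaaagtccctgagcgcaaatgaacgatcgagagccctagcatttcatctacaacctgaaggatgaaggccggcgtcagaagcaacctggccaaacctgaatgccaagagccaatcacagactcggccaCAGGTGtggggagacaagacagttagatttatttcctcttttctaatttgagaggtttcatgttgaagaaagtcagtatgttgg
Tnfrsf13c: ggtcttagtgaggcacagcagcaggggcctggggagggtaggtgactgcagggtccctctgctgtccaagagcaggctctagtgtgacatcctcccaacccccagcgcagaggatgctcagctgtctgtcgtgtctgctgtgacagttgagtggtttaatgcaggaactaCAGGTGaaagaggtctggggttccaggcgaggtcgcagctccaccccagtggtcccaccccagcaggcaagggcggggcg
Cd37: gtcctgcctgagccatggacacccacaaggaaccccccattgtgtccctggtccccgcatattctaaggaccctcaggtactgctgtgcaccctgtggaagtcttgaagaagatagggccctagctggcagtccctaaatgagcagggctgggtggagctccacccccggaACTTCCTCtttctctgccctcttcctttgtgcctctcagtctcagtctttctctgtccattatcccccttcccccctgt
The matches begin 139 bases before the start in Cr2, 84 in Fcrla, 80 in Tnfrsf13c and 79 in Cd37. A match of letters describes these windows and was not tested against the changes.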

How the data were processed

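Whole blood cell pellets were profiled on Affymetrix RaGene-1_0-st-v1 arrays. Per the file headers, the authors summarized each array by RMA to log2 signals per probe set, with annotation on rn5, and deposited the log2 mean of each time point. The deposited SDs (log2 scale, another kind of value) were taken as given, and the averages are, by the study's methods, over the samples at hand for each time point and were treated as plain means. In the study limma was used, per the labels, and samples were randomized over batches of RNA work-up, which were not analysed here. The table also has 47 columns of single arrays, numbered without naming an animal or hour and so not used, and 19 columns of the authors' comparisons (fold changes, p-values and FDRs), also not used. The planned fit with the rat as a block was therefore not run.

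A one-way linear model over the 6 time points was rebuilt from means, SDs and array numbers (41 residual degrees of freedom) and moderated with eBayes in limma 3.58.1 (R 4.3.3), with Benjamini-Hochberg adjustment over 27596 probe sets. On simulated data for 2 h against 0 h with 27596 probe sets it called 195 of 200 changed ones, with 7.58% false calls. In the real data 55.5% of all probe sets were called by the F-test. The simulated rates therefore need not hold for the real data. No filter on low values was applied. The number of arrays limits the precision. Named were all members, the 3 largest changes at 2 h of each list, partners that bind a member and the 5 nearest profiles. Lyn, Inpp5d, Adam10, St6gal1, Tnfsf13, Tnfrsf13b, Tnfrsf17 and Cd40 were named for their role. A gene of the lists of partners, B cell markers and other B cell surface proteins is not reported here and was left out of their counts. The members and lists were chosen with earlier results of these data known. Jchain was found under its older symbol Igj, and Icos and Ms4a4a were not matched to a probe set. Alternatives were an ordinary test, an intensity trend with robust prior, centred or quantile normalized means, leaving out the lowest 25% of probe sets or the 24 h samples, and the spread of the compared time points alone.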

Additional observations from a re-analysis of the deposited data

Results flagged for a closer look

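The change from 0 h differed between 2 h and 24 h in each of the 10 receptors, by the test of the difference itself (24 h minus 2 h, limma, adjusted over all probe sets). The difference was 2.01 for Ms4a1, 1.43 for Fcmr, 1.29 for Fcer2, 1.23 for Fcrla, 1.04 for Cd22, 1.02 for Cr2, 0.76 for Tnfrsf13c, 0.55 for Cd72 and 0.34 for Cxcr5 on the log2 scale. For Cd37 it was -0.42, with an adjusted p of 0.0122. The 2 h samples came from the tail vein and the 24 h samples from the heart after an anesthetic overdose, so time, site and overdose cannot be told apart.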

How the results depend on the processing

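The 7 counts of called members stayed within 1.5 times their value under every alternative run, and of 130 values of single members at 2 h and 24 h under an alternative 126 kept their direction and their side of the threshold. The median change at 2 h was -1.30 with centred and -1.19 with quantile normalized means, and the other alternatives leave the medians as they are by construction. Members called lower at 24 h numbered 5 with quantile normalized means, where Cd22 and Tnfrsf13c were lost, and 8 with centred means or with the spread of the compared time points alone, where Cd37 was gained (adjusted p = 0.0487 and 0.0279). At 6 h the count was 8 with the ordinary test, with quantile normalized means and without the 24 h samples, as Cd37 was lost (adjusted p = 0.0578, 0.097 and 0.054). At 3 h it was 9 with quantile normalized means. No further probe set of a member exists in the table, so that alternative gave no value. No paired analysis was possible because the array columns carry neither a rat nor a time point in their names. The number of arrays, 7 or 8 per time point, limits what can be detected, and detection above background cannot be judged from means.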

Other observations

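Among the other B cell surface proteins, 3 probe sets chosen after their values were seen departed from the course of the receptors. The probe set that names both Fcgr2b and Fcgr2a, receptors for IgG that myeloid cells also carry, rose by 0.75 ± 0.06 (SE) at 2 h (adjusted p = 1.19e-13) and differed by 0.11 at 24 h (adjusted p = 0.166). Cd86, a ligand of Cd28 on antigen-presenting cells, changed by -0.96 at 2 h and stayed at -0.89 by 24 h, a difference of 0.07 (adjusted p = 0.791). Cd27, a receptor of T cells and memory B cells, changed by -0.52, -1.15 and -0.68 over 2, 6 and 24 h (adjusted p = 9.57e-05, 5.46e-12 and 4.19e-06).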
